A study of Mus musculus with 13 samples.

Results

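The genes described here encode the lipid-presenting molecule CD1d and proteins that load, sort or trim its lipids. They are Cd1d1, Cd1d2, Psap, Gla, Npc2, Mttp, Gm2a and Ap3b1, chosen by name. All 8 were measured among 18818 genes, each by 1 probe set annotated to that gene alone, and no probe set with several gene names listed any of them. Values are log2 expression after robust multi-array averaging (RMA), so a difference of 1 is a doubling of signal.

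CD1d resembles an MHC class I heavy chain, pairs with β2-microglobulin and shows lipids rather than peptides to natural killer T (NKT) cells. It takes up lipid in the endoplasmic reticulum, travels to the cell surface, is drawn back into endosomes and lysosomes, and exchanges its lipid there with the help of transfer proteins and glycosidases. In fat, adipocytes as well as macrophages, dendritic cells and B cells carry it. α-Galactosylceramide (αGalCer) is a glycolipid that binds CD1d and activates NKT cells.

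Epididymal white fat of male mice aged 6.5 weeks was measured on 13 arrays in 4 groups. Wild type C57/BL6 mice were given αGalCer at 100 ng per g (4 arrays) or the vehicle pyridine (3 arrays). CD1d knockout mice of the strain B6.129S6-Cd1d1/Cd1d2tm1spb/J were given the same αGalCer dose (3 arrays) or vehicle (3 arrays). Injections went into the peritoneum on days 0 and 2 of a high-fat diet, which all groups ate, and tissue was taken on day 4. The knockout, whose strain name lists both Cd1d1 and Cd1d2, is in the germ line, so it applies to every cell type. Mice without CD1d also lack the NKT cells that CD1d selects. How many animals stood behind each array is not given, so p-values measure the spread between arrays, which may be partly technical.

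Adipocyte markers, 9 of 10 listed genes measured, averaged 12.08 to 12.30 in the 9 arrays other than wild type αGalCer, so the tissue carried the defining transcripts of fat. Skeletal muscle markers averaged 9.54 in knockout αGalCer replicate 3 and 9.30 and 7.68 in knockout vehicle replicates 1 and 2, against 5.43 to 6.35 in the other 10 arrays. Epididymis markers averaged 5.47 in wild type vehicle replicate 3 and at most 3.90 in any other array. Results that change when the 3 muscle-rich arrays are left out are given both ways.

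After αGalCer in wild type fat, the lysosomal and sorting genes rose while Cd1d1 itself fell. Gla rose 4.35-fold, Psap 1.45-fold, Gm2a 1.38-fold, Npc2 1.37-fold and Ap3b1 1.26-fold, and Cd1d1 fell 2.09-fold. Cd1d2 and Mttp did not pass the test. In total 6 of 8 genes were called in limma at an adjusted p under 0.05, 5 higher and 1 lower, where 41.9% of all genes were called (19.8% higher and 22.0% lower). The median change of the 8 genes was 0.40 on the log2 scale, against -0.02 over all genes.

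**Figure D1:**
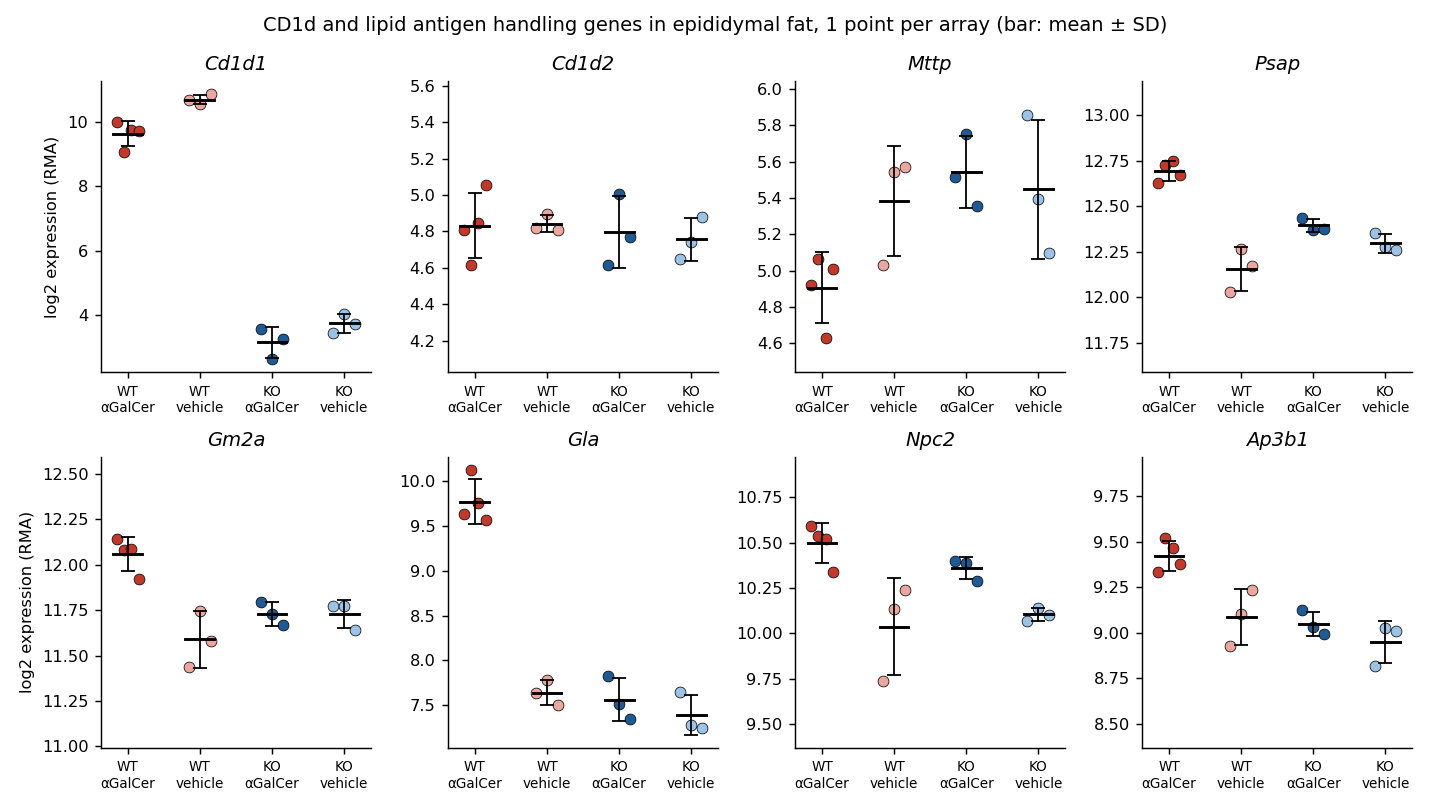
Log2 expression (vertical axis) of the 8 genes, 1 point per array, in wild type (WT) and CD1d knockout (KO) fat after αGalCer or vehicle, with the mean and SD in black and a separate scale per gene. Gla lay at 9.56 or higher in the 4 wild type αGalCer arrays and at 7.83 or lower in the other 9, while Cd1d1 separated the genotypes.

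Cd1d1 encodes the CD1d heavy chain. Its values were 10.01, 9.08, 9.74 and 9.71 in wild type αGalCer fat, against 10.67, 10.55 and 10.86 in wild type vehicle fat. Knockout fat had 3.56, 2.64 and 3.24 after αGalCer and 3.45, 4.03 and 3.72 after vehicle. The 6 knockout arrays lay far below all 7 wild type arrays, and within wild type every αGalCer array lay below every vehicle array. Every array thus carried the Cd1d1 level of its labelled genotype. The knockout minus wild type difference was -6.49 ± 0.24 (SE) after αGalCer (adjusted p = 4.37e-09) and -6.96 ± 0.26 after vehicle (adjusted p = 3.35e-08), or 89.8-fold and 124.5-fold. Whether the knockout signal lay above background was not tested.

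The fall of Cd1d1 after αGalCer in wild type was -1.06 ± 0.24 on the log2 scale (adjusted p = 0.00288, 95% interval -1.58 to -0.54). In knockout fat, where the signal is dim throughout, the same contrast was -0.59 ± 0.26 with overlapping groups (adjusted p = 0.72). With array weights that contrast was called (-0.95, adjusted p = 0.0432), and over all 26 alternatives its adjusted p ran from 0.0432 to 1. The difference of the contrasts, knockout minus wild type, was 0.47 ± 0.35 (adjusted p = 0.39), and one side of it is the dim knockout signal.

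Adipocyte markers moved with Cd1d1 in wild type fat. Their average ran from 10.18 to 11.02 in the αGalCer arrays and from 12.08 to 12.20 in the vehicle arrays, and 9 of 9 measured markers fell. The αGalCer array with the least Cd1d1, replicate 2 at 9.08, also had the lowest adipocyte average, 10.18. Among the 3 vehicle arrays the array with the most Cd1d1, replicate 3 at 10.86, had the lowest adipocyte average, 12.08. Endothelial markers fell as well, 6 of 6, with averages of 8.36 to 8.74 after αGalCer against 10.00 to 10.22 after vehicle. In RNA from whole tissue, fewer cells of a type and less RNA per cell cannot be told apart, and the part of these cells in the fall of Cd1d1 was not tested.

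**Figure D2:**
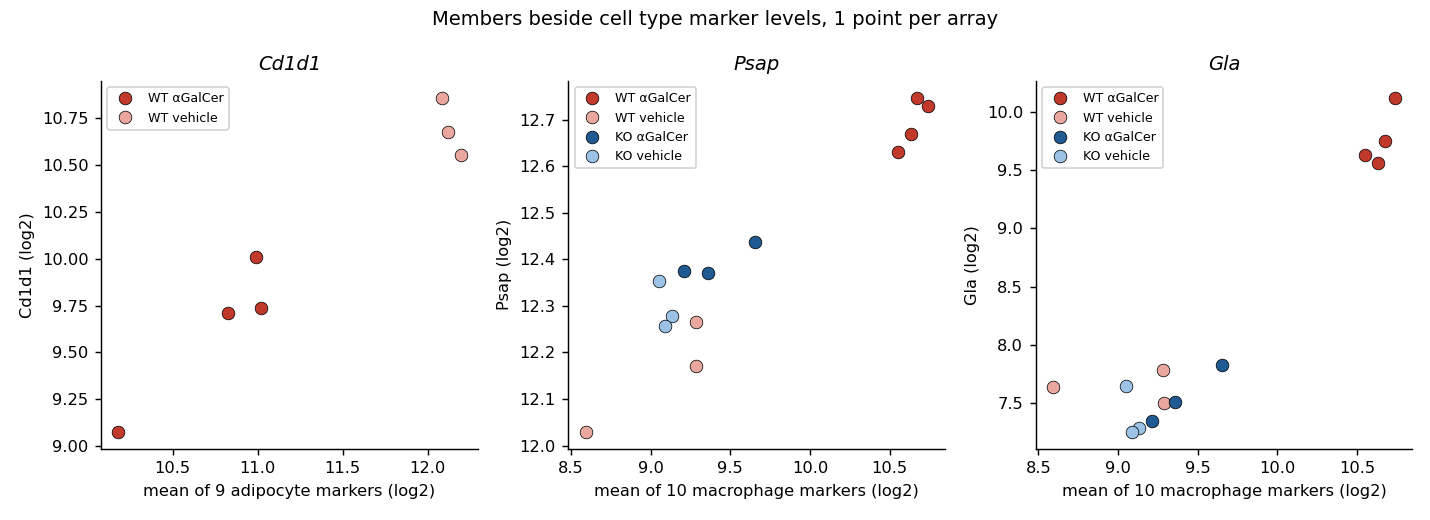
Cd1d1 against the mean of 9 adipocyte markers in the 7 wild type arrays, and Psap and Gla against the mean of 10 macrophage markers in all 13 arrays (log2 on both axes, 1 point per array). The 4 wild type αGalCer arrays stood apart on both axes in each panel, and the lowest Cd1d1 value, 9.08, came with the lowest adipocyte average, 10.18.

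Cd1d2 lies beside Cd1d1 on chromosome 3, and the name of the knockout strain lists it as well. RefSeq classes it as a transcribed pseudogene in C57BL/6J. Its values were 4.81, 4.62, 4.85 and 5.05 in wild type αGalCer fat, against 4.82, 4.90 and 4.81 in wild type vehicle fat. In the knockout its values were 4.62, 5.01 and 4.77 after αGalCer and 4.65, 4.74 and 4.88 after vehicle. All 4 groups overlapped. The αGalCer change in wild type was -0.01 ± 0.12 (95% interval -0.27 to 0.25), and the knockout minus wild type difference was -0.03 ± 0.12 after αGalCer and -0.09 ± 0.13 after vehicle. The Cd1d2 signal did not follow the genotype, while that of Cd1d1 did. The sequences of the genes are close. In vehicle fat Cd1d2 averaged 4.84 in wild type and 4.76 in knockout, where Cd1d1 differed 124.5-fold. No part of the Cd1d2 signal was thus seen to fall with Cd1d1. The Cd1d2 signal was dim, with a mean of 4.81 over all arrays, at percentile 29.8 of all genes. If the knockout removes Cd1d2 as well, as the strain name lists, a signal alike in both genotypes cannot be read as Cd1d2 transcript. Whether the Cd1d2 signal lay above background, and which transcript its probes read, was not tested.

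Mttp encodes microsomal triglyceride transfer protein, which loads lipid onto apolipoprotein B and, in mice, onto CD1d in the endoplasmic reticulum. Its signal was dim, with a mean of 5.29 over all arrays, at percentile 36.2 of all genes. Whether the Mttp signal lay above background was not tested in any group. Its values were 4.92, 5.07, 4.63 and 5.01 in wild type αGalCer fat, against 5.03, 5.54 and 5.57 in wild type vehicle fat. Vehicle replicate 1 overlapped the αGalCer arrays, and the other vehicle arrays lay above them. The change was -0.47 ± 0.19 and did not pass the test (adjusted p = 0.0639, 95% interval -0.89 to -0.06). Without wild type vehicle replicate 1 it was -0.65 (adjusted p = 0.0209). Without the 3 muscle-rich knockout arrays it stayed at -0.47, since none of them enters the contrast, and passed (adjusted p = 0.0365). In all, 7 of 26 alternatives called it, with adjusted p from 0.00892 to 0.211 over all of them.

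In knockout fat Mttp was 5.52, 5.75 and 5.36 after αGalCer and 5.86, 5.39 and 5.10 after vehicle. After αGalCer the 3 knockout arrays lay above all 4 wild type arrays, a difference of 0.63 ± 0.19 (adjusted p = 0.0166). Without knockout αGalCer replicate 2 the difference was 0.53 and no longer passed (adjusted p = 0.0817, and 0.000921 to 0.0817 over all 26 alternatives). Liver and gut markers, which include Mttp's client Apob, averaged 5.39 to 5.58 in knockout αGalCer fat and 5.13 to 5.38 in wild type αGalCer fat. They averaged 5.51 to 6.58 in knockout vehicle fat and 6.27 to 6.60 in wild type vehicle fat. Of these 7 markers 5 fell after αGalCer in wild type, with a median change of -1.27, and Apob fell by 0.87 ± 0.18 (adjusted p = 0.00167). In knockout fat their median change was -0.72, and none passed the test in limma. There 4 of 7 had an unadjusted p under 0.05, against 1281 of all 18818 genes. The part of these markers in the Mttp values was not tested.

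Ap3b1 encodes the β subunit of the adaptor complex AP-3, which in mice binds the tail of CD1d and carries it to lysosomes. Its values were 9.34, 9.52, 9.46 and 9.38 in wild type αGalCer fat, against 8.93, 9.10 and 9.24 in wild type vehicle fat. Knockout arrays had 9.13, 9.03 and 8.996 after αGalCer and 8.82, 9.03 and 9.01 after vehicle. The wild type αGalCer arrays lay above every other array. The rise in wild type was 0.34 ± 0.09 (adjusted p = 0.00791), and the knockout contrast was 0.10 ± 0.10 (95% interval -0.11 to 0.31). The difference of the contrasts was -0.24 ± 0.13 and did not pass the test (adjusted p = 0.217).

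Psap encodes prosaposin, which lysosomal proteases cut into saposins that lift lipids out of membranes and exchange them on CD1d. Its values were 12.63, 12.73, 12.75 and 12.67 in wild type αGalCer fat, against 12.03, 12.27 and 12.17 in wild type vehicle fat. Knockout fat had 12.44, 12.37 and 12.38 after αGalCer and 12.35, 12.28 and 12.26 after vehicle. Wild type αGalCer arrays lay above all others. Wild type vehicle replicate 1 had the lowest Psap value and also the lowest macrophage marker average, 8.59. The rise in wild type was 0.54 ± 0.06 (adjusted p = 1.06e-05).

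Gm2a encodes the GM2 activator, a lysosomal lipid carrier that presents gangliosides to hexosaminidase and can load CD1d. Its values were 12.14, 12.08, 12.09 and 11.92 in wild type αGalCer fat, against 11.44, 11.75 and 11.58 in wild type vehicle fat. In knockout fat they were 11.80, 11.73 and 11.67 after αGalCer and 11.77, 11.77 and 11.64 after vehicle. The knockout groups overlapped throughout, and all 4 wild type αGalCer arrays lay above them. The rise in wild type was 0.47 ± 0.08 (adjusted p = 0.000317).

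Npc2 encodes a soluble lysosomal protein that carries cholesterol and has been found to load CD1d in mice. Its values were 10.59, 10.53, 10.52 and 10.34 in wild type αGalCer fat, against 9.74, 10.14 and 10.24 in wild type vehicle fat. Knockout arrays had 10.40, 10.39 and 10.29 after αGalCer and 10.07, 10.14 and 10.10 after vehicle. In each genotype the αGalCer arrays lay above the vehicle arrays. The rise in wild type was 0.46 ± 0.11 (adjusted p = 0.00334). The knockout contrast of 0.25 ± 0.11 did not pass the test (adjusted p = 0.72), and its interval of 0.01 to 0.50 overlapped that of wild type, 0.23 to 0.69. Without wild type vehicle replicate 1, the lowest array at 9.74, the wild type rise was 0.31 and still passed the test (adjusted p = 0.0102).

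Gla encodes α-galactosidase A, the lysosomal enzyme that removes terminal α-linked galactose from glycolipids and so can trim lipids before CD1d presents them. Its values were 9.63, 10.12, 9.75 and 9.56 in wild type αGalCer fat, against 7.64, 7.78 and 7.51 in wild type vehicle fat. In the knockout its values were 7.83, 7.51 and 7.35 after αGalCer and 7.65, 7.29 and 7.25 after vehicle. The wild type αGalCer arrays stood well above the other 9 arrays, whose 3 groups overlapped. The rise in wild type was 2.12 ± 0.16 (adjusted p = 3.56e-07), and the knockout contrast was 0.17 ± 0.17 (95% interval -0.19 to 0.53).

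Macrophage markers moved with these lysosomal genes. Their average ran from 10.55 to 10.74 in wild type αGalCer fat and from 8.59 to 9.29 in wild type vehicle fat, and 9 of 10 markers rose. In knockout fat it ran from 9.21 to 9.66 after αGalCer and from 9.05 to 9.13 after vehicle, again without overlap. None of the 10 passed the test in limma there, with 2 at an unadjusted p under 0.05, against 1281 of all 18818 genes. The macrophage proteins Cd68 and C1qa rose by 1.82 ± 0.15 and 1.87 ± 0.15 in wild type, and Mertk changed by 0.13 ± 0.17 (adjusted p = 0.599). The part of macrophages in the rise of Gla, Psap, Gm2a, Npc2 and Ap3b1 was not tested.

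**Figure D3:**
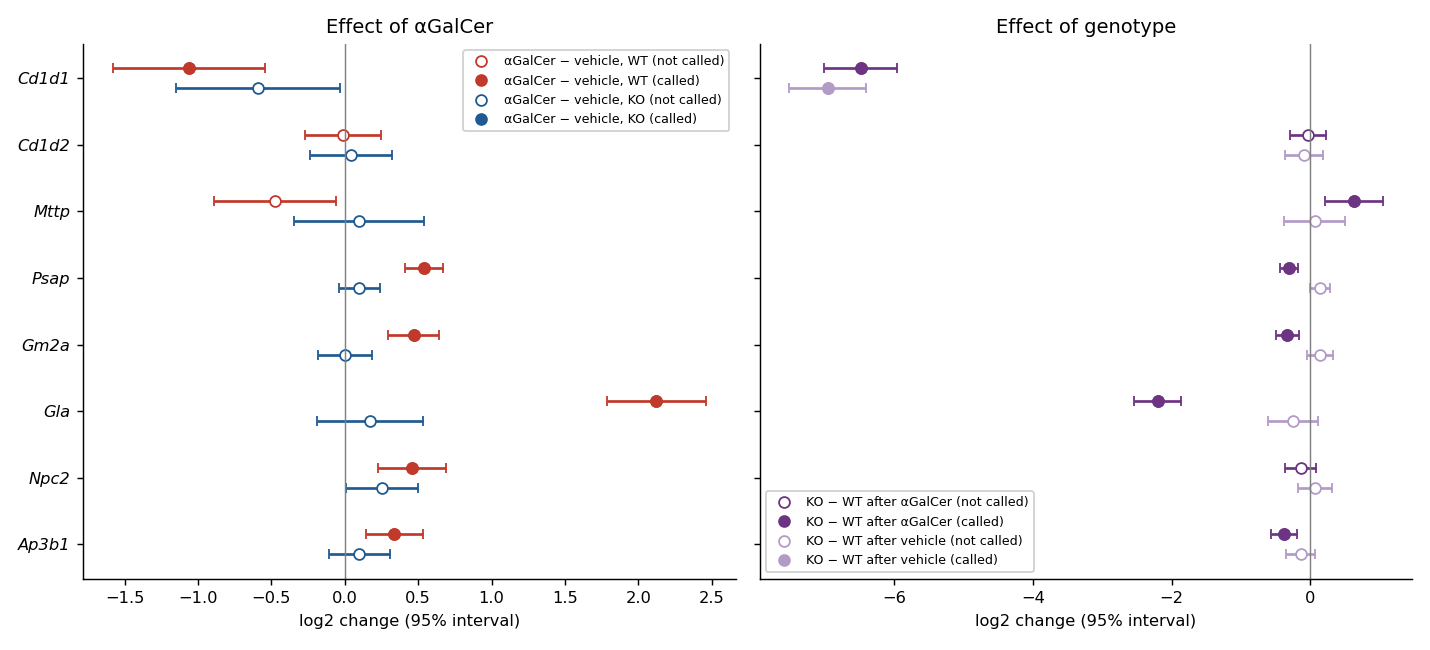
Log2 changes with 95% intervals for the 8 genes, for αGalCer minus vehicle in wild type (WT) and CD1d knockout (KO) fat on the left and for knockout minus wild type after αGalCer and after vehicle on the right. Filled points were called at an adjusted p under 0.05, and Cd1d1 was the 1 gene called after vehicle.

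In knockout fat none of the 8 genes was called for αGalCer in limma, and 0% of all genes were called. With 3 arrays per group this does not show that the genes were unchanged. At an unadjusted p under 0.05 there were 2 of 8, Cd1d1 (lower) and Npc2 (higher), against 1281 of all 18818 genes. Psap and Npc2 had αGalCer arrays that all lay above the vehicle arrays, a pattern found for 7.79% of all genes. Psap changed by 0.10 ± 0.06 there (adjusted p = 0.779), and Gm2a by 0.00 ± 0.08 (95% interval -0.18 to 0.185).

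Tested directly, the αGalCer effect differed between genotypes for 3 of 8 genes, each with a lower change in knockout, where 28.2% of all genes were called and 13.9% were lower. Counted in either direction, 3 of 8 was near the share of all genes. The knockout minus wild type difference of effects was -1.95 ± 0.23 for Gla (adjusted p = 5.26e-05), -0.47 ± 0.12 for Gm2a (adjusted p = 0.00824) and -0.44 ± 0.09 for Psap (adjusted p = 0.00224). For Npc2 it was -0.20 ± 0.15 (adjusted p = 0.399) and for Mttp 0.57 ± 0.28 (adjusted p = 0.166). Without the 3 muscle-rich knockout arrays, which leaves 2 knockout αGalCer arrays and 1 vehicle array, the values were -0.35 for Gm2a (adjusted p = 0.159) and -0.39 for Psap (adjusted p = 0.051). Mttp was then called at 1.01 (adjusted p = 0.0428), where the lone knockout vehicle array is assumed to vary like the other groups. It was called also without knockout vehicle replicate 1 alone (0.77, adjusted p = 0.0364) and with array weights (0.80, adjusted p = 0.00629). Over the 25 alternatives the adjusted p ran from 0.00163 to 0.159 for Gm2a, 0.000362 to 0.051 for Psap and 0.00629 to 0.335 for Mttp.

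Between genotypes after αGalCer, 6 of 8 genes were called, 1 higher and 5 lower in knockout, where 41.1% of all genes were called (21.9% higher and 19.2% lower). This comparison uses the same 4 wild type αGalCer arrays as the one within wild type. Besides Cd1d1 and Mttp, Gla was lower in knockout by -2.20 ± 0.16, a 4.60-fold difference (adjusted p = 2.75e-07). Ap3b1 was lower by -0.38 ± 0.09 (adjusted p = 0.00396), Gm2a by -0.33 ± 0.08 (adjusted p = 0.00443) and Psap by -0.30 ± 0.06 (adjusted p = 0.00131). Npc2 differed by -0.14 ± 0.11 (adjusted p = 0.345). After vehicle Cd1d1 was called and no other member, where 0.112% of all genes were called. Psap was the other member at an unadjusted p under 0.05 (0.0496), a threshold that 1258 of all 18818 genes passed. The differences after vehicle were -0.25 ± 0.17 for Gla, 0.14 ± 0.06 for Psap and 0.14 ± 0.08 for Gm2a, and the 95% intervals ended at -0.61 and 0.11, 0.00 and 0.28, and -0.04 and 0.32.

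RefSeq promoter windows were available here for Psap, Gla, Npc2, Mttp, Gm2a and Ap3b1. The windows of the 3 genes whose αGalCer effect differed between genotypes are given as the 250 bases before the annotated start, on GRCm38.p6. Gla is at chrX:134601006-134601255 on the minus strand, Gm2a at chr11:55097735-55097984 on the plus strand, and Psap, the first of 2 windows, at chr10:60277378-60277627 on the plus strand. Capitals mark matches to TCACGTG, the core of the element described for lysosomal genes, or to TTCNNNGAA, a pattern that STAT factors can bind. These 3 genes rose together in wild type, as did Npc2 and Ap3b1, whose windows are not printed.
Gla: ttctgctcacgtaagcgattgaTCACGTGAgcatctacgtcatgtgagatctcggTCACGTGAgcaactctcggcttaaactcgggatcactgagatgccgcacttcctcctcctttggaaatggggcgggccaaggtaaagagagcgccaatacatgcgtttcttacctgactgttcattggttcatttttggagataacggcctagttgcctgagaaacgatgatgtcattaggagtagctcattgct
Gm2a: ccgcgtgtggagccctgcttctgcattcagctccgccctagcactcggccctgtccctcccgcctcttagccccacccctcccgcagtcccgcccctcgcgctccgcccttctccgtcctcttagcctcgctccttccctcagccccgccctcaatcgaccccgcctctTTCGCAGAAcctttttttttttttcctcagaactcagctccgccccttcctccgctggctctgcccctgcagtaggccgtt
Psap: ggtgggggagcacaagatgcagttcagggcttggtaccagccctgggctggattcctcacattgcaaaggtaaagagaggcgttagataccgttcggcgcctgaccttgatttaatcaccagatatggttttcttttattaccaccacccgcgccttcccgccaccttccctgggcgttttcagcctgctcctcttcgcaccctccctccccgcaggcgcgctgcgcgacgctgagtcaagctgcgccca

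The Gla window held CACGTG at 2 places, beginning 227 and 194 bases before the start, and each lay within a stretch that reads TCACGTG on either strand. Over 32851 promoter windows, both strands searched, 6.02% held CACGTG, 0.429% held 2 or more, and 3.13% held TCACGTG. Gm2a held 1 match to TTCNNNGAA, beginning 81 bases before the start, which 7.02% of windows held. Psap, Npc2, Mttp and Ap3b1 held none of these letters in their windows. Counted by gene, TCACGTG lay in the window of 5 of 20 genes of the lysosomal lipid list, against 3.58% of all genes. They were Gla, Glb1, Arsa, Ctsa and Lamp1, of which Gla, Glb1 and Ctsa rose, where 13 of all 21 measured genes of the list rose. Among the proteases 3 of 5 held it, Lgmn and Ifi30, which rose, and Ctsd, which did not pass the test (adjusted p = 0.171). Of all 5 measured proteases 4 rose. It lay in 2 of 17 sorting genes, 1 of 9 endoplasmic reticulum genes and 2 of 15 glycosphingolipid genes with a window, and in 0 of 4 lipid uptake and 0 of 10 NKT genes. A match in these letters describes the window and shows no binding.

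Around the members, other genes of lysosomal lipid breakdown mostly rose in wild type fat after αGalCer. Of 17 measured besides the members, 9 rose and 1 fell, with a median change of 0.44 against -0.02 over all genes. β-Glucuronidase (Gusb) rose by 1.498 ± 0.13 (adjusted p = 9.74e-07), the lysosomal phospholipase Pla2g15 by 1.43 ± 0.14 and acid lipase (Lipa) by 1.09 ± 0.18. Hexosaminidase A (Hexa), which works with the GM2 activator, rose by 1.00 ± 0.13, and acid ceramidase (Asah1) by 0.83 ± 0.14. Acid sphingomyelinase (Smpd1) was the member of the list that fell, by 0.96 ± 0.10 (adjusted p = 5.76e-06). The lysosomal membrane proteins Lamp1 and Lamp2 changed by 0.14 ± 0.08 and 0.17 ± 0.12 and did not pass the test (adjusted p = 0.19 and 0.321).

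Among 18 other genes of adaptor complexes and sorting, 7 rose and 1 fell, with a median of 0.26, and the share called was near the 41.9% of all genes. The AP-2 subunits of endocytosis Ap2m1 (1.04 ± 0.09) and Ap2s1 (0.87 ± 0.09) rose most, and the AP-1 subunit Ap1s1 rose by 0.43 ± 0.10. Within AP-3 the members did not move together. Ap3b1 rose, Ap3s1 fell by 0.46 ± 0.14 (adjusted p = 0.0203), and Ap3d1 changed by -0.02 ± 0.08 (95% interval -0.19 to 0.15).

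In the endoplasmic reticulum list, 7 of 10 genes besides Mttp rose and 1, Apob, fell, with a median of 0.62. The peptide transporter subunits Tap1 and Tap2, which serve MHC class I rather than CD1d, rose by 2.27 ± 0.15 and 1.22 ± 0.10. The invariant chain Cd74, which can escort CD1d to endosomes, rose by 0.84 ± 0.10. B2m, the light chain of CD1d and of MHC class I, changed by -0.06 ± 0.08 (adjusted p = 0.619, 95% interval -0.23 to 0.11). CD1d's folding chaperone calnexin (Canx) changed by 0.02 ± 0.09, while calreticulin (Calr) rose by 0.62 ± 0.07.

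Of 5 lysosomal proteases and reductases, 4 rose, with a median of 1.70. Cathepsin S (Ctss), needed in mice for normal CD1d trafficking, rose by 2.95 ± 0.22 (adjusted p = 3.96e-07). The thiol reductase Ifi30 rose by 2.19 ± 0.14, legumain (Lgmn) by 1.70 ± 0.15 and cathepsin L (Ctsl), tied to NKT cell selection in mice, by 0.61 ± 0.10.

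Lipid uptake genes went the other way, with 6 of 9 lower and 1 higher and a median of -0.69. Apoe, which delivers lipid antigens to CD1d-bearing cells, fell by 1.31 ± 0.19 (adjusted p = 8.86e-05). Lipoprotein lipase (Lpl) fell by 0.95 ± 0.12 and the fatty acid carrier Fabp4 by 0.86 ± 0.10, both of which adipocytes make in bulk. The macrophage scavenger receptor Msr1 was the gene that rose, by 3.35 ± 0.36 (adjusted p = 6.42e-06).

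Of 17 genes of glycosphingolipid synthesis 9 rose and 3 fell, with a median of 0.36. The ganglioside synthase B4galnt1 rose by 2.77 ± 0.18 (adjusted p = 1.52e-07), the lactosylceramide synthase B4galt5 by 1.83 ± 0.19 and ceramide synthase Cers6 by 1.78 ± 0.13. Ceramide synthases Cers4 and Cers5 fell by 1.04 ± 0.24 and 0.29 ± 0.06, and the desaturase Degs1 by 0.64 ± 0.06. Glucosylceramide synthase (Ugcg), which opens the pathway, rose by 1.13 ± 0.16.

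On the NKT side of CD1d recognition 12 of 13 genes rose and 1 fell in wild type, with a median of 2.4996. The receptor Slamf6 rose by 3.91 ± 0.11, the interleukin receptor chain Il2rb by 3.76 ± 0.23 and Cd3e of the T cell receptor complex by 3.23 ± 0.16, and T and NK cells carry all 3 as well. Zbtb16, which encodes the transcription factor PLZF of NKT cells and is expressed outside them too, fell by 1.76 ± 0.19 (adjusted p = 8.23e-06), with averages of 9.43 in αGalCer and 11.18 in vehicle arrays. Slamf1 and the adaptor Sh2d1a, which NKT cells need to develop, rose by 2.09 ± 0.14 and 2.00 ± 0.15. Besides the members, 89 genes of these 7 lists were measured. None passed the test for αGalCer in knockout fat in limma, with 4 at an unadjusted p under 0.05, and none between genotypes after vehicle, with 7. Of all 18818 genes, 1281 and 1258 had an unadjusted p under 0.05 in these comparisons. The difference of effects, knockout minus wild type, was called for 50 of the 89, where 28.2% of all genes were called. By list it was called for 1 higher and 7 lower of the 17 lysosomal genes, 5 lower of the 18 sorting genes, 7 lower of the 10 endoplasmic reticulum genes and 4 lower of the 5 proteases. Lipid uptake went the other way, with 5 higher and 1 lower of 9. Glycosphingolipid synthesis had 1 higher and 6 lower of 17, and the NKT list 1 higher and 12 lower of 13. The share of sorting genes called was near that of all genes.

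**Figure D4:**
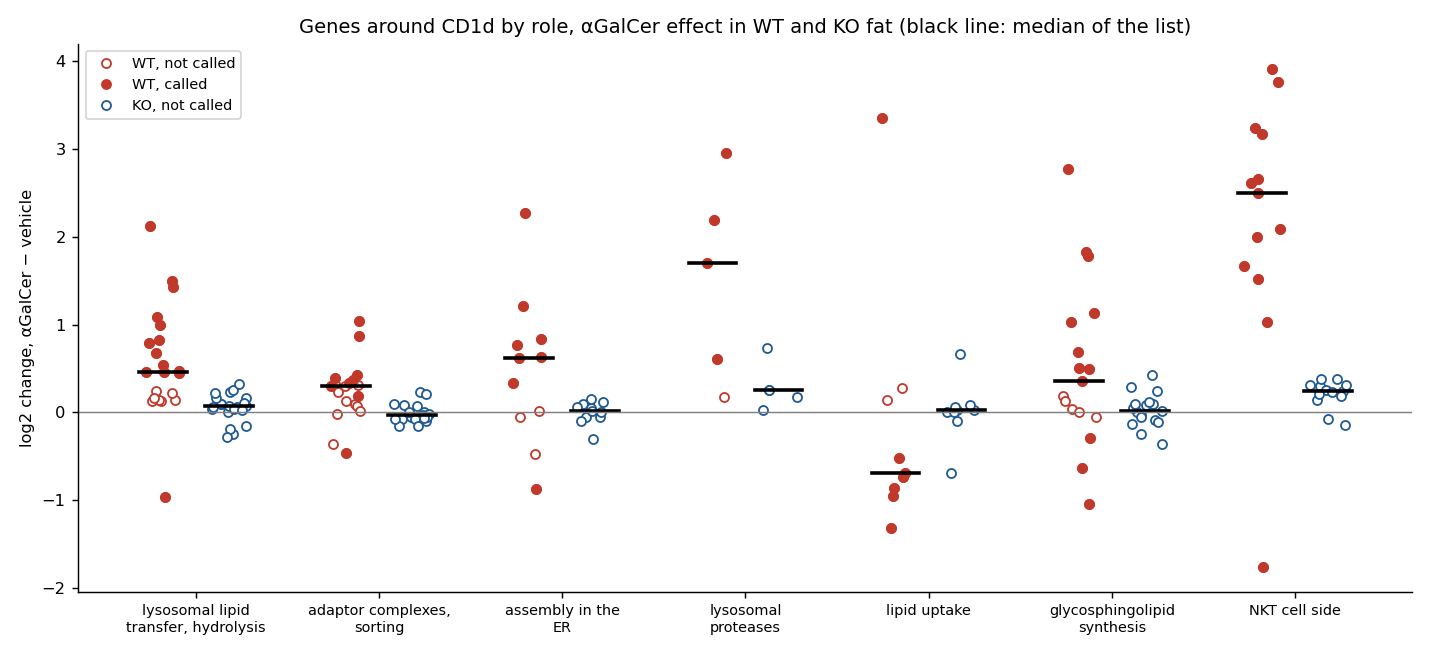
Log2 change of αGalCer minus vehicle for every measured gene of 7 role lists, members included, in wild type (WT, red) and CD1d knockout (KO, blue) fat, with filled points called at an adjusted p under 0.05 and a black line at each list's median. Wild type medians lay above 0 except for lipid uptake, and no knockout point was called.

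The closeness of each pattern to other genes was measured by Pearson's r over the 13 arrays, as a description, since the arrays share the 4 groups and the wild type αGalCer group dominates most patterns. Psap was closest to the lysosomal carboxypeptidase Ctsa (r = 0.991), progranulin Grn (0.985) and the macrophage receptor Csf1r (0.981). Gm2a was closest to Csf1r (0.968), the lectin Clec10a (0.968) and Ap5b1 (0.967). Gla was closest to the polymerase subunit Pole2 (0.994), the proton pump subunit Atp6v1b2 (0.993) and the cannabinoid receptor Cnr2 (0.993). Ap3b1 was closest to Fabp7, Fyb and Nostrin (0.981, 0.979 and 0.976), Npc2 to Pitpnc1, Gbgt1 and Arhgef4 (0.943, 0.935 and 0.934), and Mttp to Mrfap1, Dnajc30 and Nisch (0.925, 0.91 and 0.899). For Cd1d1 they were Psmd14, Lrpprc and Psmd12 (0.939, 0.925 and 0.915), a pattern set by genotype. Over the 7 wild type arrays alone they were Gsta3 (0.994), Pde9a (0.993) and Lrig3 (0.993). Cd1d2 reached at most 0.742, with Olfr193, followed by Olfr816 and Kif4-ps (0.734 and 0.725). Psap and Gm2a followed each other at r = 0.939. Cd1d1 had r = 0.15 and 0.216 with them over the 13 arrays, where its gap between genotypes dominates. Within wild type Cd1d1 fell after αGalCer while both of them rose.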

How the data were processed

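RNA of 13 arrays was measured, 1 column each. The authors deposited log2 values per probe set, made with RMA per the submitters' processing notes, which corrects background, quantile normalises and summarises probes. No software version, chip description or genome build is given in the sources used here. Array medians ran from 5.68 to 5.83. The number of arrays limits precision, and scan dates are not given.

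Of 35556 probe sets, 21218 had 1 gene symbol, 1881 several and 12457 none. Symbols were updated through Entrez identifiers or accessions with the RefSeq table of GRCm38.p6, and the probe set with the highest mean stood for a gene. All 18818 genes, with no filter on dim ones, entered limma (version 3.58.1, R 4.3.3) with 1 mean per group, 9 residual degrees of freedom and eBayes with an intensity trend. The 5 contrasts were two-sided and adjusted over all genes by Benjamini-Hochberg. Values after ± are standard errors. The model was tested on simulated data.

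The members, 7 role lists and 9 marker lists were chosen with earlier results of these data known. From each role list the rule named the 3 largest rises and 3 largest falls called in wild type. It also named list genes called in other contrasts, which are given as counts here. Other genes named were picked after their values were seen. Some listed genes are not reported here. The STAT motif was added after the values were seen. The labels do not say that replicate numbers pair arrays. Of 18 same-numbered pairs 5 had deviations correlated above 0.1 (r from -0.203 to 0.484). Differently numbered pairs were not compared, so these values cannot show whether arrays were paired. The main model used no pairing, since the labels give none.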

Additional observations from a re-analysis of the deposited data

Results flagged for a closer look

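The effect of αGalCer differed between genotypes, by the test of the difference itself in limma, for 3 of the 8 genes, where 28.2% of all genes were called. In either direction the count of 3 of 8 was near that share. The difference, knockout minus wild type, was -1.95 for Gla, -0.47 for Gm2a and -0.44 for Psap. Without the 3 muscle-rich knockout arrays, Gm2a and Psap did not pass (adjusted p = 0.159 and 0.051). Gla was higher in all 4 wild type αGalCer arrays than in any of the other 9 arrays, and so were Gm2a, Psap and Ap3b1, whose difference of effects did not pass (adjusted p = 0.217). None of the 8 genes had a wild type αGalCer array that stood apart from the other 3 by Dixon's test at its 95% critical value, and the largest ratio of gap to range was 0.719, for Npc2. The groups of 3 arrays were not tested for this.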

How the results depend on the processing

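Each comparison was repeated under 26 alternatives, 25 for the difference of effects, which has no fit on 2 groups alone. No called direction reversed, and 27 of 40 gene results kept their side of the threshold throughout. Requiring a 1.5-fold change left 2 of 8 genes called for αGalCer in wild type (Cd1d1 and Gla), 1 for the difference of effects (Gla) and 3 for knockout against wild type after αGalCer (Cd1d1, Gla and Mttp). The shares of all genes given above have no fold limit, so these counts cannot be set against them. Array weights called 1 gene, Cd1d1, for αGalCer in knockout, against 0 in the unweighted model. Leaving out each array in turn gave 6 to 7 genes called in wild type, 0 in knockout, 3 to 4 for the difference, 1 between genotypes after vehicle and 5 to 6 after αGalCer. The fixed replicate block called 6, 0, 3, 1 and 6 genes, as the unblocked model did, and the random block gave the same counts. The filter on dim genes removed Cd1d2 alone among the members.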

Other observations

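Other cells that carry CD1d were described by marker lists. Of 8 dendritic cell markers 6 rose and 1 fell after αGalCer in wild type fat, and the list averaged 6.90 to 7.51 in αGalCer arrays and 5.91 to 6.24 in vehicle arrays. Xcr1 and Batf3 of cross-presenting dendritic cells rose by 1.86 ± 0.16 and 1.61 ± 0.14 (adjusted p = 1.11e-06 and 1.42e-06), while Cd209a changed by 0.00 ± 0.19 (adjusted p = 0.99). Zbtb46 was the listed marker that fell, with a change of -0.36 ± 0.12 (adjusted p = 0.0248). Of 8 B cell markers 2 rose, Cd22 by 1.67 ± 0.15 and Blk by 0.36 ± 0.13 (adjusted p = 1.42e-06 and 0.0411). Over all genes 19.8% were called higher and 22.0% lower in this contrast, and the B cell count was near the share called higher. The defining B cell genes Cd79a, Cd79b and Pax5 changed by 0.08 ± 0.14, 0.09 ± 0.18 and -0.08 ± 0.10 (adjusted p = 0.702, 0.752 and 0.581). The B cell list averaged 4.91 to 5.04 in wild type αGalCer arrays and 4.76 to 4.82 in wild type vehicle arrays. All 8 T and NK cell markers rose.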
